A study of Homo sapiens with 1 sample.

Results

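The potassium channel genes were described in differentiating human cells from 1 single-cell RNA library. Members were all genes of the feature list whose symbol is KCN followed by letters and a number, which gave 95 members among 33538 genes. The library was labelled hHAR123 with genotype WT and was made from H9, an established human embryonic stem cell line. The plated cells were first held for 2 days with a ROCK inhibitor at 5 µM, dorsomorphin at 1 µM and SB431542 at 10 µM, where dorsomorphin and SB431542 block BMP and TGF-beta receptor signalling and direct such cells to a neural fate. Pieces of the colonies were then rotated in suspension for 5 days with dorsomorphin and SB431542 alone, and the resulting embryoid bodies were replated for 7 days without these agents. Independent clones of this genotype were pooled before loading, and the cells were taken before neural rosettes were picked. There was therefore 1 sample and no replicate: no test between cell classes was possible, cells were not treated as replicates, and every interval covers counting error only.

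Potassium channels let potassium leave the cell, or enter it at very negative voltages, and so set the resting potential and end the action potential. Voltage-gated members (KCNA, KCNB, KCNC, KCND, KCNF, KCNG, KCNH, KCNQ, KCNS, KCNV) open on depolarization or are silent subunits that modify those that do. Calcium- and sodium-activated members (KCNMA, KCNN, KCNT) answer to ions inside the cell, and KCNU is counted with them here only as a relative. Inward rectifiers (KCNJ) hold the resting potential, 2-pore-domain members (KCNK) carry leak currents, and auxiliary members (KCNAB, KCNE, KCNIP, KCNMB) modify the channel they bind. Neural progenitors are known to have leak and delayed rectifier currents before they fire, and newborn neurons add further voltage-gated channels as they become excitable.

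The matrix held 14726 barcodes, of which 13925 had 2000 to 10000 genes and a mitochondrial share under 0.1. Of these, 121 cells had at least 3 of the 6 markers STMN2, ELAVL3, ELAVL4, INSM1, NHLH1 and NEUROD1 and were called newborn neuron-like, and 1582 cells had at least 5 UMIs per 10000 from ANXA1, TFPI2 and CTGF and were called contractile. A further 2 cells met both rules and were left out, and the other 12220 cells were taken as progenitors. Markers outside the rules were read next. All 9 other neuron markers, DCX and MAP2 among them, were at least 2-fold higher in newborn neuron-like cells than in progenitors, and all 7 other contractile markers, TAGLN and ACTA2 among them, were at least 2-fold higher in contractile cells. Levels are given as UMIs per 1000000 of the class (CPM). Of 7 neural progenitor markers, 4 were at least 2-fold lower and 3 within 2-fold in newborn neuron-like cells, with SOX2 at 142 CPM against 414 in progenitors and LHX2 at 239 against 163. In contractile cells 3 of the 7 were lower (SOX2 at 117 CPM), 2 were within 2-fold, and the filament genes NES (666 against 239 CPM) and VIM (4301 against 909 CPM) were higher, so that the list summed to 5394 CPM there and to 2222 in progenitors. By UMIs per cell, the contractile over progenitor ratios of the 3 lower markers were 0.707 for SOX2, 0.938 for PAX6 and 0.425 for LHX2. These 7 markers thus did not all set progenitors apart from contractile cells. The muscle genes MYOD1 and MYOG were at 0 in newborn neuron-like and contractile cells, while TNNT2, a cardiac muscle gene, was at 5.54 CPM in contractile cells. None of the 5 glia markers reached 5 CPM in any class, and GFAP was at 0 or below 0.1 CPM in all. The highest were S100B at 2.76 CPM in progenitors and OLIG2 at 2.03 CPM, on 4 UMIs, in newborn neuron-like cells. The 8 neural crest and mesenchyme markers summed to 19.2, 31.9 and 87.4 CPM in progenitors, newborn neuron-like and contractile cells, led by TFAP2A at 25.9 CPM in newborn neuron-like cells and COL1A2 at 68.7 CPM in contractile cells, and the part of such cells in the results was not tested. The median depth per cell was 16944 UMIs in progenitors, 14100 in newborn neuron-like cells and 47149.5 in contractile cells, and the class totals were 235969837, 1971847 and 76572802 UMIs.

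Newborn neuron-like cells held the most potassium channel RNA. The members summed to 3885 CPM there (95% Poisson interval 3798 to 3973), against 908 CPM in progenitors (904 to 912) and 556 CPM in contractile cells (551 to 561). By UMIs per cell newborn neuron-like cells still held the most (7660 UMIs in 121 cells). On that scale contractile cells (42578 UMIs in 1582 cells) held more than progenitors (214182 UMIs in 12220 cells). Members at 5 CPM or more in a class are called on. There were 23 on in progenitors, 26 in newborn neuron-like cells and 16 in contractile cells, against 35.3%, 36% and 33.2% of all 33538 genes. In the 121 newborn neuron-like cells only 20 of the 26 had a lower bound at or above 5 CPM, while all 23 and all 16 did in the larger classes. In all, 32 members were on in at least 1 class and 63 in none, among them 4 with no UMI in any kept cell (KCNA6, KCNA10, KCNJ18 and KCNK16).

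The members were then sorted by the classes in which they were on. No share of all genes was set beside these counts, so they only describe the members. There were 9 members on in all classes, among them KCNB2, KCNH7, KCNIP4, KCNMA1, KCNMB4, KCNQ3 and KCNT2. A further 10, among them KCNC1, KCND2, KCNH5, KCNH8, KCNJ3, KCNK10 and KCNN3, were on in progenitors and newborn neuron-like cells but not in contractile cells. These calls are by CPM, and contractile cells held 2.51 times the UMIs per cell of progenitors. By UMIs per cell the members just named were still lower in contractile cells than in progenitors. KCNMB3 (0.234 against 0.150) and KCNAB2 (0.133 against 0.105), also among the 10, were higher. KCNIP1 and KCNS3 were on in progenitors and contractile cells, and KCNH1, KCNJ6 and KCNQ5 in newborn neuron-like and contractile cells. Members on in 1 class were the leak channel genes KCNK2 and KCNK12 in progenitors, KCNH2, KCNJ12, KCNK5 and KCNN1 in newborn neuron-like cells, and KCNG1 and KCNJ2 in contractile cells. Some of these lay close to the limit: KCNJ12 was at 5.07 CPM in newborn neuron-like cells (2.43 to 9.33, 10 UMIs) and KCNK5 at 6.09 CPM (3.14 to 10.6, 12 UMIs). Members not on were also uncertain there, since upper bounds passed 5 CPM for KCNK2 and KCNIP1 (7.31 each), KCNK12 and KCNS3 (5.92 each) and KCNG1 (5.19). In contractile cells the upper bounds of KCNC1 (5.19) and KCNH8 (5.08) passed it too.

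By family, 14 of the 40 voltage-gated members were on in at least 1 class, 4 of the 8 calcium- or sodium-activated, 5 of the 16 inward rectifiers, 4 of the 15 2-pore-domain and 5 of the 16 auxiliary members, 32 of 95 in all, against 39% of all genes. No 2-pore-domain member was on in contractile cells, where the family summed to 9.48 CPM, against 43.2 CPM in progenitors. The KCNA subfamily, the Shaker-type channels of mature axons, was nearly silent by these counts: none of its 8 members exceeded 1.01 CPM in any class. KCNA6 lies wholly within GALNT8 on the same strand, so its lack of UMIs is uncertain. The 5 KCNE members, small subunits best known from heart and epithelia, did not exceed 3.11 CPM.

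**Figure D1:**
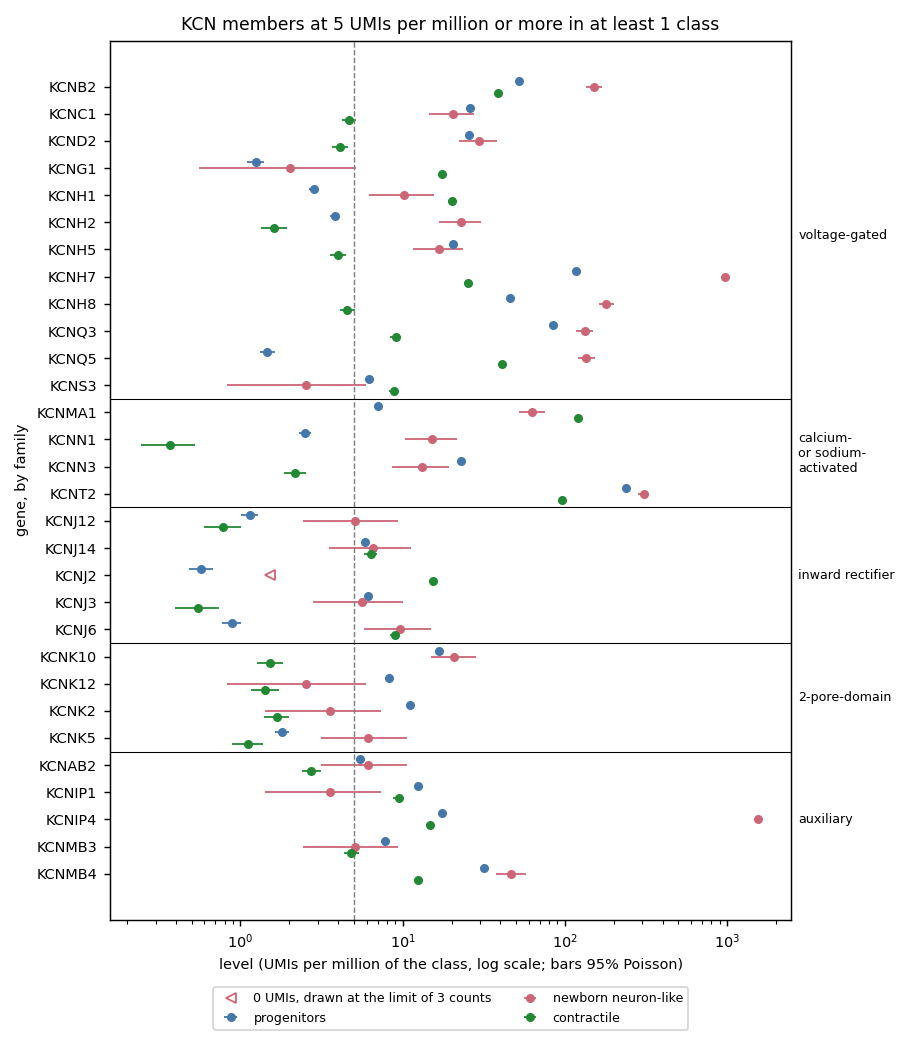
Levels of 30 of the 32 KCN members at 5 CPM or more in at least 1 class, by family; x axis CPM on a log scale, points the pooled level of progenitors, newborn neuron-like and contractile cells, bars 95% Poisson intervals, dashed line the limit of 5, open triangle KCNJ2 with 0 UMIs drawn at 3 counts. KCNIP4 and KCNH7 lie far to the right in newborn neuron-like cells (1547 and 968), and KCNMA1 is highest in contractile cells (121).

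A few members made up most of this RNA. In progenitors KCNT2, a sodium-activated channel, and KCNH7, an ERG-type voltage-gated channel, held 39.1% of all KCN UMIs, and in newborn neuron-like cells KCNIP4 and KCNH7 held 64.7%. In contractile cells KCNMA1, the large-conductance calcium-activated (BK) channel, and KCNT2 held 39.1%. KCNT2 (chromosome 1, 196225779 to 196609225, minus strand, GRCh38) was the most widely seen member in progenitors and contractile cells: it had a UMI in 92.5% of progenitors, 92.6% of newborn neuron-like cells and 86.6% of contractile cells, and in 64.7%, 71.7% and 32.9% after each cell was thinned to 5000 UMIs. Its level was 238 CPM in progenitors, 305 in newborn neuron-like and 96.2 in contractile cells.

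Long genes led these ranks. Members on in at least 1 class had a median span of 182 kb, against 21.4 kb for the other 63, and over the 95 members the Spearman rho of progenitor level with span was 0.57, a description across genes that share 1 library. Divided by gene span, the order of levels changed, and short genes that were not on reached high values, such as KCNE5 in progenitors (211 CPM per 100 kb) and KCNF1 in contractile cells (123). KCNE5 shares 929 bases with ACSL4 on the same strand, so its value is uncertain. The values that follow are for named members that were on. In progenitors KCNT2 had 62.1 CPM per 100 kb, the inward rectifier KCNJ14 51.6, the BK partner KCNMB4 46.6 and KCNH7 24.9. In newborn neuron-like cells KCNH7 had 207 CPM per 100 kb, KCNIP4 127 and KCNT2 79.6. In contractile cells the inward rectifier KCNJ2 had 136 CPM per 100 kb, KCNG1 89.3, KCNJ14 55.8 and KCNMA1 15.8.

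Newborn neuron-like cells were next compared with progenitors. Members with a mean level of at least 5 CPM over both classes were compared, a filter that a member can pass through 1 high class alone. Of the 27 that passed, 11 were at least 2-fold higher in newborn neuron-like cells and 3 at least 2-fold lower. Over all 12096 genes that passed, 8.74% were higher and 9.66% lower. The median ratio was 1.28 over the 27 members and 0.951 over all genes compared. Of the 11 higher members 7 were voltage-gated, 2 calcium- or sodium-activated, 1 an inward rectifier and 1 auxiliary, and 2 of the 3 lower ones were 2-pore-domain channels.

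KCNIP4, a calcium-binding subunit of the KCND channels that carry the A-type current, had the highest level of any member in newborn neuron-like cells. It had 3051 UMIs there, a level of 1547 CPM (1493 to 1603), and 17.4 CPM in progenitors, a ratio of 88.8 (84.7 to 93). It was found in 77 of the 121 newborn neuron-like cells (63.6%, 57.5% after thinning) and in 18.2% of progenitors (7.04% after thinning). Free RNA from broken neurons can give such UMIs in other cells, and its part in the progenitor level was not tested. KCND2, the channel subunit that KCNIP4 can bind, was not higher to the same degree: it stood at 29.4 CPM in newborn neuron-like cells and 25.5 in progenitors, a ratio of 1.15 (0.873 to 1.49). KCNIP1, a close relative of KCNIP4, was lower instead, with 7 UMIs and 3.55 CPM against 12.5 CPM, a ratio of 0.284 (0.114 to 0.586), which was 0.546 after thinning and then within 2-fold. The thinned ratio rested on 4 newborn neuron-like cells with a KCNIP1 UMI.

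Of the 8 KCNH genes 5 passed the filter, and 4 of these were at least 2-fold higher in newborn neuron-like cells, beside 8.74% of all genes compared. Of those that did not pass, KCNH4 had 5 UMIs and a ratio of 31.5 (9.19 to 87.2) and KCNH3 had 3 UMIs and a ratio of 3.32 (0.675 to 9.98), while KCNH6 had no UMI in newborn neuron-like cells. KCNH7 (chromosome 2, 162371407 to 162838767, minus strand) stood at 968 CPM against 117, a ratio of 8.31 (7.92 to 8.70), and had a UMI in 116 of 121 newborn neuron-like cells and in 61.9% of progenitors (85.8% and 36.0% after thinning). KCNH8, an ELK-type channel, stood at 180 CPM against 45.9, a ratio of 3.92 (3.52 to 4.36). KCNH2, the ERG channel known from cardiac repolarization, stood at 22.8 CPM against 3.81, a ratio of 5.98 (4.33 to 8.07). KCNH1, an EAG-type channel, had 20 UMIs and 10.1 CPM against 2.85 CPM, a ratio of 3.56 (2.16 to 5.55). KCNH5, also of EAG type, was within 2-fold at 16.7 CPM against 20.5, but 0.375 after thinning and 0.379 without cells over 2 times the median UMIs of their class, with 33 UMIs in all and 30.3% of them in 1 cell. The thinned KCNH5 ratio rested on 5 newborn neuron-like cells with a UMI.

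KCNB2, a delayed rectifier gene, stood at 151 CPM in newborn neuron-like cells and 52.1 in progenitors, a ratio of 2.90 (2.58 to 3.26). KCNQ3, which encodes a subunit of the M-current channel that damps firing, was at 133 CPM against 84.9 (1.56, 1.38 to 1.77). KCNC1, a fast delayed rectifier of fast-firing neurons, was at 20.3 CPM against 26.1 (0.777, 0.555 to 1.06). KCNQ3 and KCNC1 were thus within 2-fold.

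KCNQ5, a further M-current gene, had the highest ratio but rested on few cells. It stood at 135 CPM (120 to 153, 267 UMIs) against 1.47 CPM in progenitors, a ratio of 92.3 (78.4 to 109). Only 17 of the 121 newborn neuron-like cells had a KCNQ5 UMI, 1 cell held 39.0% of the 267 UMIs and the top 3 cells held 61.4%. The ratio was 59.7 without the cell with the most KCNQ5 UMIs in each class and 58.1 with a contractile limit of 10 in place of 5 UMIs per 10000.

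Among ion-activated members, KCNMA1 stood at 62.9 CPM in newborn neuron-like cells and 7.05 in progenitors, a ratio of 8.92 (7.37 to 10.7), and was found in 52 of 121 cells. KCNMB4, the BK subunit typical of neurons, differed less, at 46.7 CPM against 31.7 (1.47, 1.18 to 1.81). KCNN1, a small-conductance calcium-activated channel, had 30 UMIs and 15.2 CPM against 2.5 CPM, a ratio of 6.10 (4.08 to 8.80), whereas its relative KCNN3 was at 13.2 CPM against 22.9 (0.575, 0.375 to 0.843). The KCNN3 ratio was 0.485 by UMIs per cell and 0.461 with 4 of the 6 neuron markers required, but 0.979 after thinning. KCNT2 was within 2-fold at a ratio of 1.28 (1.18 to 1.39). KCNJ6, a G-protein-coupled inward rectifier, had 19 UMIs and 9.64 CPM against 0.886 CPM, a ratio of 10.9 (6.42 to 17.4), while its partner KCNJ3 was at 5.58 CPM against 6.14 (0.908, 0.452 to 1.63), a ratio that was 0.521 after thinning and 0.587 without the cell with the most KCNJ3 UMIs in each class. KCNJ14, a further inward rectifier, had 13 UMIs and a ratio of 1.12 (0.595 to 1.92), which was 0.270 after thinning. Only 1 newborn neuron-like cell then had a KCNJ14 UMI and 1 a KCNJ3 UMI, too few to read these thinned ratios as drops.

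Of the 3 leak channel genes that passed the filter, 2 were lower in newborn neuron-like cells and 1 was within 2-fold. KCNK2, a stretch-sensitive leak channel, had 7 UMIs and 3.55 CPM in newborn neuron-like cells against 11.0 CPM, a ratio of 0.322 (0.129 to 0.663). That ratio was 0.959 with no quality filter on cells, which added 1 newborn neuron-like cell, and 0.178 without cells over 2 times the median UMIs of their class. KCNK12 had 5 UMIs and 2.54 CPM against 8.19 CPM (0.310, 0.1 to 0.724), and the ratio was 0.190 without the cell with the most KCNK12 UMIs in each class. KCNK10, a close relative of KCNK2, was at 20.8 CPM against 16.7 (1.25, 0.894 to 1.70). KCNK5, which did not pass the filter, was at 6.09 CPM against 1.81 (3.36, 1.72 to 5.94).

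**Figure D2:**
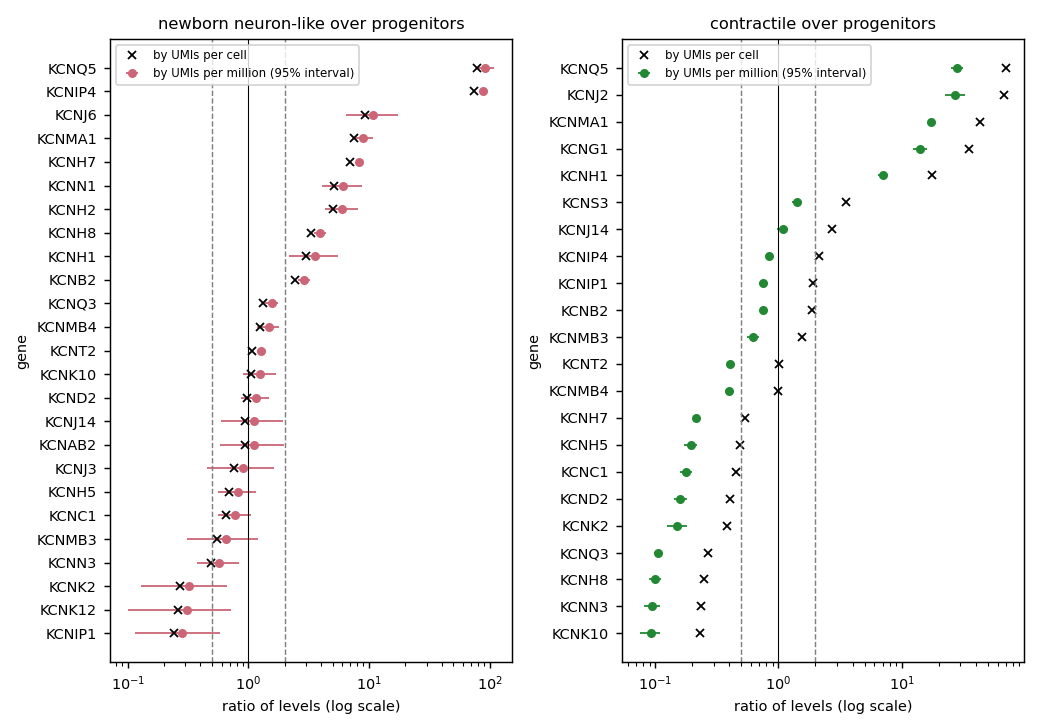
Ratio of levels for 25 of the 27 KCN members that passed the filter, newborn neuron-like over progenitors (left), and for 22 of 24, contractile over progenitors (right); x axis the ratio on a log scale, points ratios of CPM with exact 95% intervals, crosses ratios of UMIs per cell, dashed lines 2-fold. KCNQ5 and KCNIP4 stand apart on the left (92.3 and 88.8), and on the right every cross lies 2.51-fold to the right of its point.

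KCNIP4 and KCNH7 were higher in cells with more of the neuron markers. In cells with 0, 1, 2, 3 and 4 to 6 of the 6 neuron markers, bins chosen after seeing the data, KCNIP4 stood at 17.4, 17.1, 24.0, 286 and 1832 CPM. KCNH7 stood at 114, 124, 137, 308 and 1117 CPM over the same bins. KCNB2 and KCNH8 were already near their upper level with 3 markers, at 143 CPM each, against 153 and 188 CPM with 4 to 6. KCNQ5 was at 0.226 CPM with 2 markers, 5.50 with 3 and 165 with 4 to 6. The value with 2 markers was below the 1.47 CPM of all progenitors, and the value with 3 came from 1 cell. The low bins of KCNQ5 thus do not show a steady rise. The bin of 3 markers held only 22 cells.

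**Figure D3:**
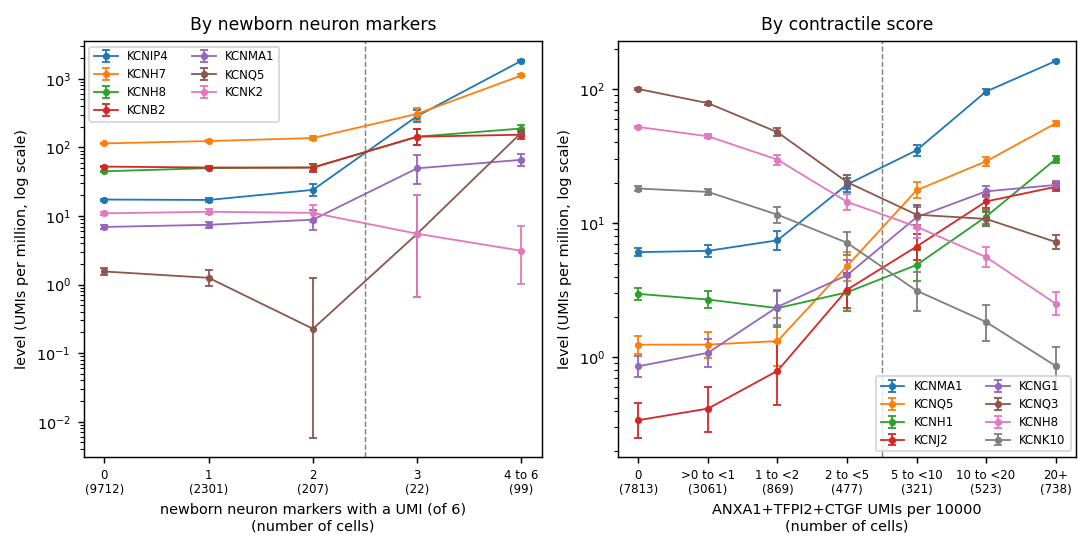
Levels in CPM (log y axis, bars 95% Poisson intervals) of named members by the number of newborn neuron markers with a UMI (left) and by UMIs per 10000 of ANXA1, TFPI2 and CTGF (right), with the number of cells under each bin and the class limit dashed. KCNIP4 goes from 17.4 to 1832 on the left, and on the right KCNMA1 goes from 6.09 to 162 while KCNQ3 goes from 100.2 to 7.25.

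Newborn neuron-like cells differed widely among themselves. KCNIP4 ranged from 0 to 18584 CPM per cell with a median of 369, and its top 3 cells held 21.5% of its UMIs. KCNH7 was more even, from 0 to 6498 CPM with a median of 642 and 15.7% of its UMIs in the top 3 cells. KCNB2 had a median of 66.3 CPM per cell, and KCNMA1 and KCNQ5 had medians of 0. Both KCNIP4 and KCNH7 were found in 74 of the 121 cells and neither in 2, and all 17 cells with KCNQ5 also had KCNIP4.

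The 77 cells with KCNIP4 were set beside the 44 without it, a split chosen after seeing the data. Their median depth was 14318 against 12677.5 UMIs. KCNH7 was at 1171 CPM in cells with KCNIP4 and 543 in cells without, KCNB2 at 187 and 75.3 CPM, and KCNH1 had 20 UMIs in the former and 0 in the latter. KCNQ3 was lower in the cells with KCNIP4, at 116 and 168 CPM, and so was KCNH5, at 8.24 and 34.5 CPM on 11 and 22 UMIs. All 9 neuron markers outside the class rule stood higher beside KCNIP4, 6 of them by 2-fold or more, from the growth cone gene GAP43 at 181 against 23.5 CPM (a ratio of 7.68) to MAP2 at 1051 against 864 CPM (1.22). SYT1 (1.29) and DCX (1.67) were also within 2-fold. The 3 transcription factor genes of the class rule went both ways, with NEUROD1 (127 against 213 CPM) and INSM1 (122 against 176 CPM) lower and NHLH1 (169 against 80.0 CPM) higher beside KCNIP4. The 6 mitotic genes TOP2A, MKI67, CENPF, ASPM, UBE2C and CCNB1 summed to 692 CPM beside KCNIP4 and 231 CPM without it, and their part in these differences was not tested. Each had a UMI in at most 31.2% of the cells with KCNIP4. CENPF was found in a larger share of the cells without KCNIP4 (45.5%), and the other mitotic genes in smaller shares. TFAP2A, an ectodermal and neural crest transcription factor gene, was at 15.0 and 48.6 CPM.

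**Figure D4:**
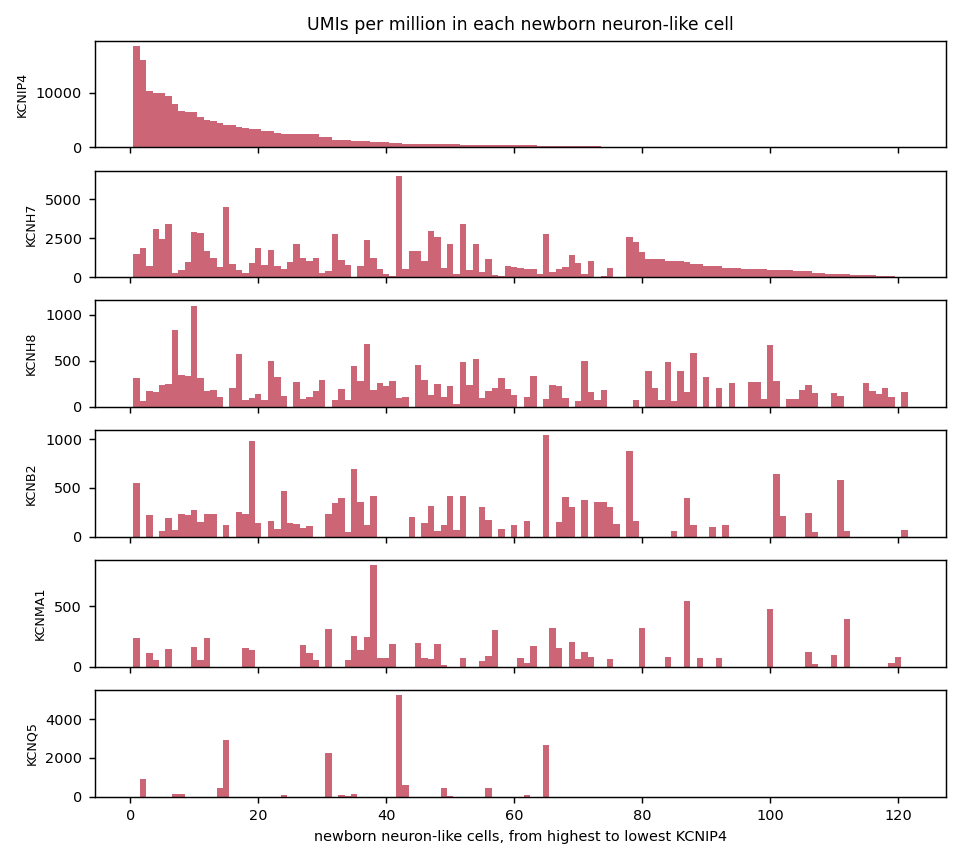
CPM of 6 KCN members in each of the 121 newborn neuron-like cells (bars), all panels with the cells in order of falling KCNIP4; each y axis has its own scale starting at 0. The first 77 cells have KCNIP4, KCNH7 is present along almost the whole axis, and KCNQ5 is limited to 17 cells with a single cell at 5239.

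Contractile cells were compared with progenitors in the same way. Of the 24 members that passed the filter, 5 were at least 2-fold higher in contractile cells and 12 at least 2-fold lower. Over all 11676 genes compared, 7.14% were higher and 13.4% lower. The median ratio was 0.487 over the 24 members and 0.864 over all genes. Contractile cells held 2.51 times the UMIs per cell of progenitors, which raises every gene's ratio by that factor on the per-cell scale. By UMIs per cell 8 of the 24 members were higher and 9 lower, with no share of all genes set beside these counts.

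The 5 higher members were KCNMA1, KCNQ5, KCNJ2, KCNG1 and KCNH1. By UMIs per cell their ratios are 2.51 times larger by construction, so that scale is no further check on them. KCNMA1, the BK channel known to relax smooth muscle, had 9279 UMIs and stood at 121 CPM (119 to 124) against 7.05 CPM, a ratio of 17.2 (16.3 to 18.1). It was found in 71.6% of contractile cells and 9.15% of progenitors, and in 31.5% and 3.03% after thinning. KCNQ5, also known from smooth muscle, stood at 41.2 CPM against 1.47, a ratio of 28.1 (25.1 to 31.5), in 22.7% of contractile cells. KCNJ2, the main strong inward rectifier of heart and vessels, stood at 15.5 CPM against 0.572, a ratio of 27.1 (22.6 to 32.6). KCNG1, a silent subunit that modifies KCNB channels, stood at 17.4 CPM against 1.24, a ratio of 14.0 (12.3 to 15.9). KCNH1 stood at 20.1 CPM against 2.85, a ratio of 7.07 (6.45 to 7.75).

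The 12 lower members included 7 of the 10 that were on in progenitors and newborn neuron-like cells but not in contractile cells. KCNK10 was at 1.53 CPM against 16.7 (ratio 0.0917, 0.0757 to 0.110), KCNN3 at 2.17 against 22.9 (0.0945, 0.0805 to 0.110), KCNH8 at 4.57 against 45.9 (0.0996, 0.0893 to 0.111) and KCNQ3 at 9.04 against 84.9 (0.106, 0.0985 to 0.115). After thinning KCNK10 was at 0.0512 and KCNH8 at 0.0637. These 4 remained at least 2-fold lower by UMIs per cell, as did 5 others, among them KCNK2, KCND2, KCNC1 and KCNH5, whose ratios by CPM lay between 0.151 and 0.194. KCNH7 was at 25.1 CPM against 117, a ratio of 0.216, but 0.541 by UMIs per cell. KCNMB4 had a ratio of 0.394 by CPM and 0.987 by UMIs per cell. KCNT2 had a ratio of 0.404 by CPM (0.394 to 0.414) but 1.01 by UMIs per cell, so its direction depended on the scale. KCNIP4 (0.846), KCNJ14 (1.08) and the silent subunit gene KCNS3 (1.42) were within 2-fold by CPM and 2.12, 2.71 and 3.56 times higher by UMIs per cell.

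Members of both sets were then read over the contractile score. In cells with 0, above 0 to under 1, 1 to under 2, 2 to under 5, 5 to under 10, 10 to under 20 and 20 or more UMIs per 10000 of ANXA1, TFPI2 and CTGF, KCNMA1 stood at 6.09, 6.22, 7.46, 19.4, 35.0, 95.9 and 162 CPM. KCNQ3 stood at 100.2, 78.6, 47.7, 20.3, 11.6, 10.8 and 7.25 CPM over the same bins. KCNMA1 and KCNQ3 thus already differed below the class limit of 5. KCNQ5 stood at 1.24, 1.24, 1.32, 4.79, 17.6, 28.9 and 55.5 CPM. KCNH1 departed later: it was at 4.88 CPM in the bin just above the limit and at 30.0 CPM in the highest bin. KCNJ2 went from 0.340 CPM in the lowest bin to 18.7 in the highest, and KCNG1 from 0.858 to 19.3 CPM. Of the lower members, KCNK10 went from 18.2 to 0.864 CPM and KCNN3 from 25.2 to 1.28 CPM. The median depth went from 15784 to 53542.5 UMIs over these bins, which is why levels and not shares of cells are given. There were 89 cells within 1 UMI per 10000 below the limit and 72 within 1 above.

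Set against each other, newborn neuron-like and contractile cells differed in most members compared. Of 25 members, 16 were at least 2-fold higher in newborn neuron-like cells and 4 lower, against 20.5% and 13.6% of the 11927 genes compared, and the medians of the ratio were 3.89 and 1.1. By UMIs per cell 10 were higher and 8 lower, again with no share of all genes set beside these counts. On that scale KCNB2, KCNC1, KCNH5, KCNMB4, KCNQ5 and KCNT2 came within 2-fold. KCNIP4 had a ratio of 105 (98.0 to 113), KCNN1 41.6 (24.0 to 72.3), KCNH8 39.4 (33.9 to 45.8) and KCNH7 38.5 (36.1 to 41.0). By UMIs per cell these were 35.3, 14.0, 13.3 and 13.0, and after thinning KCNH8 was at 70.0 and KCNN1 at 26.3, so the order of KCNN1, KCNH8 and KCNH7 was not settled. KCNJ2 had no UMI in newborn neuron-like cells and 1186 in contractile cells, and was at least 10.2-fold lower with the limit of 3 counts that a count of 0 allows. KCNG1, KCNS3 and KCNIP1 were the other lower members, with ratios of 0.117, 0.287 and 0.376 on 4, 5 and 7 UMIs. After thinning KCNG1 was at 0.290 and KCNIP1 at 0.598, on 3 and 4 newborn neuron-like cells with a UMI. KCNS3 was at 0.157 without cells over 2 times the median UMIs of their class and at 0.180 without the cell with its most UMIs. KCNMA1 and KCNH1, higher than progenitors in both classes, were at 0.519 and 0.504, just within 2-fold, and passed it under 4 and 6 of the alternatives tried.

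Progenitors were also compared by their mitotic RNA. The 3055 progenitors with the most RNA of the 6 mitotic genes (median 36.4 UMIs per 10000) were compared with the 3055 with the least (0.972). Their median depths were 22887 and 13721 UMIs and their mean depths 24891 and 14696 UMIs. Ratios by UMIs per cell would thus be larger for every member, and are not given here. By CPM, none of the 23 members compared was at least 2-fold higher and 1 was lower, against 2.9% and 0.828% of the 11835 genes compared. Few genes of any kind thus passed 2-fold on this scale, and the members were near that background. The lower one was KCNK12, at a ratio of 0.465 (0.407 to 0.532), which became 0.516 after thinning and 0.501 between the top and bottom 10%. KCNH7 (0.646, 0.625 to 0.669) and KCNMB4 (0.691, 0.649 to 0.735) were among the next lowest, and KCNMA1 went from 0.765 to 0.499 between the top and bottom 10%. KCNIP4 (1.39, 1.26 to 1.53) and KCNB2 (1.33, 1.25 to 1.41) had the highest ratios. The median ratio was 0.846 over the 23 members and 1.03 over all genes.

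**Figure D5:**
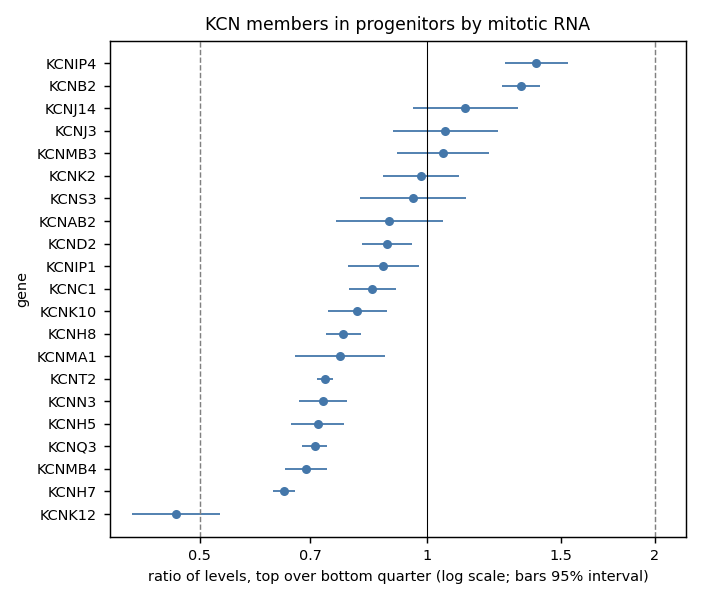
Ratio of levels of 21 of the 23 KCN members compared between the 25% of progenitors with the most and the 25% with the least mitotic RNA; x axis the ratio on a log scale, bars exact 95% intervals, dashed lines 2-fold. All drawn but KCNK12 (0.465) lie within 2-fold, from KCNH7 at 0.646 to KCNIP4 at 1.39.

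Genes that move potassium by other means, or that partner the channels, were read from a list of 21. Against progenitors, 4 were at least 2-fold higher in newborn neuron-like cells, 1 lower, 10 within 2-fold and 6 did not pass the filter, beside 8.74% higher and 9.66% lower over all genes compared. ATP1B2, a beta subunit of the sodium-potassium pump, stood at 23.3 CPM against 7.64, a ratio of 3.05. DPP6, which like KCNIP4 binds KCND channels, stood at 66.4 CPM against 29.5 (2.25, and 1.90 by UMIs per cell), and LRRC55, a BK partner, at 9.64 against 3.31 (2.92). In contractile cells 3 were higher, 2 lower and 6 within 2-fold, and 10 did not pass, beside 7.14% higher and 13.4% lower over all genes. The higher ones included SLC12A4, a potassium-chloride cotransporter (13.2 against 4.13 CPM), and DPP6 (63.4 against 29.5 CPM), and the lower ones included DPP10 (26.0 against 74.5 CPM). By UMIs per cell these contractile ratios are 2.51 times larger, and DPP10, at 0.349 by CPM, was then within 2-fold at 0.875.

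The promoters of the members with the largest ratios over progenitors are shown: KCNQ5 and KCNIP4 in newborn neuron-like cells, and KCNQ5, KCNJ2 and KCNMA1 in contractile cells. Each runs 5′ to 3′ from 250 bases before to 50 bases after the RefSeq gene start in GRCh38.p14. KCNQ5 is at chr6:72621814-72622113 on the plus strand, KCNIP4 at chr4:21948723-21949022 on the minus strand, KCNJ2 at chr17:70169282-70169581 on the plus strand and KCNMA1 at chr10:77637759-77638058 on the minus strand. Capitals mark matches on either strand to CAGCTG or CAGATG, E-boxes bound by neurogenic and myogenic factors, or to CATTCC, the TEAD motif.
KCNQ5: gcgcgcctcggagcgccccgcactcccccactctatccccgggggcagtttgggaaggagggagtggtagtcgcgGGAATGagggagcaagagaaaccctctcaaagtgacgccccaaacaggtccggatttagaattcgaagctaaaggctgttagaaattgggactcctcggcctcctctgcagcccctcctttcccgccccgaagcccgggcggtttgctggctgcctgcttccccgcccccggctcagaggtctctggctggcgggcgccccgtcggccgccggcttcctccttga
KCNIP4: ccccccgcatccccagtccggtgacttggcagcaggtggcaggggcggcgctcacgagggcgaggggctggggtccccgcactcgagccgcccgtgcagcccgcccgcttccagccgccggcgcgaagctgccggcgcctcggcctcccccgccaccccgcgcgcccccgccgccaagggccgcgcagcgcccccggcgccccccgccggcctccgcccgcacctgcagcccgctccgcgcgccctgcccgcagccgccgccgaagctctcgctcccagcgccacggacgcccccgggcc
KCNJ2: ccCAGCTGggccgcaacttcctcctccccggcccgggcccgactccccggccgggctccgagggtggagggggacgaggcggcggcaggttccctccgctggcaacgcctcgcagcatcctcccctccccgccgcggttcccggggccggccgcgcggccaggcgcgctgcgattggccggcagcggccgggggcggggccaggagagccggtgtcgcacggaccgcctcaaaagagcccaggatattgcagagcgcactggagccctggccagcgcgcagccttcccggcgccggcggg
KCNMA1: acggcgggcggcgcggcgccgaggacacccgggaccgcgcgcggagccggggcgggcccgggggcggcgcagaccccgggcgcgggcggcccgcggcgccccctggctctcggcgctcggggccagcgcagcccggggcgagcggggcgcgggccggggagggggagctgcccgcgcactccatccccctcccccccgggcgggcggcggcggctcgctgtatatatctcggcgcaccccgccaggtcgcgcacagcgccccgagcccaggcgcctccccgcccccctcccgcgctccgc
KCNJ2 held 1 CAGCTG and KCNQ5 1 CATTCC, read on the opposite strand as GGAATG, while KCNIP4 and KCNMA1 held none of the 3 motifs. Among all 35116 RefSeq promoters of this length 17.9% held CAGCTG, 14.7% CAGATG and 14.0% CATTCC, and among the 71 members with a RefSeq promoter the shares were 25.4%, 18.3% and 14.1%. All 4 sequences were rich in C and G, from 65.7% in KCNQ5 to 85.7% in KCNMA1. The counts come from the 3′ ends of transcripts and do not show which start site was used.

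Some members overlap other genes. KCNC1 lies over SERGEF for 68757 bases, KCNIP4 over PACRGL for 24302 bases and KCNIP1 over KCNMB1 for 14964 bases, each on the opposite strand, and the default counting for 3′ libraries keeps reads of the sense strand. KCNJ14 shares 1449 bases with GRWD1 on the same strand, where strand cannot tell reads apart. The same holds, among others, for KCNE5, which shares 929 bases with ACSL4 (109 CPM in kept cells). It also holds for KCNA6, whose 3985 bases all lie within GALNT8 (10.6 CPM in kept cells). KCNJ12 and KCNJ18 are near-identical copies, so the 10 KCNJ12 UMIs in newborn neuron-like cells and the absence of KCNJ18 UMIs are uncertain.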

How the data were processed

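Single-cell 3′ RNA was measured in 1 library (Chromium Next GEM 3′ HT v3.1) of wild-type H9-derived cells. The deposited values are whole-number UMI counts per gene and cell that the authors made with Cell Ranger 7.0.1 on GRCh38 with default parameters, which in that version count intronic reads, and so favour long genes, and keep sense-strand reads. Seurat 4.4.0 is also named in the submitters' processing notes. The annotation version was not given in the sources used here.

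Here cells were kept with 2000 to 10000 genes and a mitochondrial share under 0.1, and classes were set by the marker rules given in the report. No doublet caller was run, cells that met both rules were left out, and cells over 2 times their class median UMIs were left out as an alternative. Counts were summed per class and divided by the class total, giving UMIs per 1000000 (CPM). Levels have exact 95% Poisson intervals, ratios exact conditional intervals and a floor of 3 counts for a count of 0, all for counting error only. Members were on at 5 CPM, and were compared where the mean of both classes was at least 5 CPM, with 2-fold as the limit of size. Spans and overlaps came from GENCODE 44, and per-length values divide CPM by span. For thinning, each cell was sampled to 5000 UMIs, which left out 24 progenitors, 1 newborn neuron-like and 3 contractile cells. The sampling was done once, and thinned ratios have no interval. Named genes were the 8 highest and 8 lowest ratios of each comparison, the 8 highest levels of each class and members on in 1 class. The members, lists and rules were chosen with earlier results of these data known. The interval code was checked on simulated counts. Scripts ran in Python 3.11.15 with pandas 2.3.3 and numpy 2.4.6; intervals came from scipy 1.17.1 and plots from matplotlib 3.10.9. Libraries of other genotypes were not analysed here. A few genes are not reported here by name or drawn; counts of members include them.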

Additional observations from a re-analysis of the deposited data

How the results depend on the processing

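With 1 library no result has a replicate check, no replicate could be left out and p-values were not possible. No paired analysis was possible because there is 1 sample. The counts of members depended most on the limits chosen. At 1 CPM in place of 5, 46, 55 and 40 members were on in progenitors, newborn neuron-like and contractile cells, and at 20 CPM 11, 15 and 7. For newborn neuron-like cells over progenitors, a filter of 1 CPM gave 21 members higher and 7 lower, one of 20 CPM gave 7 and 0, and no filter gave 29 and 34. A fold of 1.5 gave 5 lower. With no filter, a member at 0 UMIs in newborn neuron-like cells counts as lower if progenitors hold any, and 31 members were at 0 there. For contractile cells over progenitors these filters gave 9 and 25, 2 and 5, and 16 and 42, and UMIs per cell gave 8 higher. For newborn neuron-like over contractile cells a filter of 1 CPM gave 31 higher, one of 20 CPM 8 higher and 0 lower, no filter 43 and 27, and UMIs per cell 10 and 8. No share of all genes was set beside the counts under these alternatives, so they show only how the counts move. Thinning left 0 members lower with mitotic RNA. Among KCN members that passed the filter, of the ratios between classes at least 2-fold from 1 only that of KCNT2 in contractile cells over progenitors changed direction. It was 1.01 by UMIs per cell against 0.404 by CPM. Ratios within 2-fold also crossed 1 on this scale, among them those of KCNIP4, KCNB2, KCNIP1 and KCNMB3 in contractile cells over progenitors and of KCNJ6 and KCNJ14 in newborn neuron-like over contractile cells. Other class rules (4 of 6 neuron markers, a contractile limit of 10, each contractile gene with a UMI, progenitors with SOX2 and no neuron marker, no quality filter), the mean of per-cell CPM and leaving out the deepest cells kept every count of members within 1.5 times. The 121 newborn neuron-like cells set the precision, since 1 UMI there is worth 0.507 CPM.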

Other observations

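Sodium, calcium and HCN channel genes were read in the same way. Over all genes compared, 8.74% were higher and 9.66% lower in newborn neuron-like cells than in progenitors, and 7.14% and 13.4% in contractile cells. Of 13 sodium channel genes, 2 were at least 2-fold higher in newborn neuron-like cells than in progenitors, 1 was lower, 4 were within 2-fold and 6 did not pass the filter. SCN3A, the sodium channel of the developing brain, stood at 56.3 CPM against 1.87, a ratio of 30.1, and the auxiliary subunit gene SCN3B at 15.2 against 1.32, a ratio of 11.5. SCN1A was lower, at 4.06 CPM against 11.2. In contractile cells SCN1A (0.627 CPM) and SCN9A (1.87 against 8.68 CPM) were lower, 1 of the 13 was within 2-fold and 10 did not pass. By UMIs per cell, of which contractile cells hold 2.51 times as many, SCN1A had a ratio of 0.140 and SCN9A one of 0.539, within 2-fold.

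Of 10 calcium channel genes, 3 were at least 2-fold higher in newborn neuron-like cells, 2 were within 2-fold and 5 did not pass. CACNA1B, the N-type channel of presynaptic terminals, stood at 128 CPM against 6.70 in progenitors, a ratio of 19.1, and CACNA1A and CACNA1E had ratios of 2.06 each, which were 1.74 by UMIs per cell. CACNA1B was also higher in contractile cells, at 15.5 CPM, a ratio of 2.32, and CACNA1E was lower (0.0640, and 0.161 by UMIs per cell). CACNA1A was lower by CPM (0.458) but had a ratio of 1.15 by UMIs per cell, so its direction depended on the scale. Of the 4 HCN genes, which encode channels opened by hyperpolarization, HCN4 passed the filter in newborn neuron-like cells, at 9.13 CPM against 2.10, a ratio of 4.35.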
